A study of Mus musculus with 278 samples.

Results

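The genes described are the tumour suppressor Trp53, its inhibitor Mdm2 and 8 genes that hold the cell cycle or act downstream of p53, namely Cdkn1a, Cdkn1b, Cdkn2a, Cdkn2b, Ccng1, Gadd45a, Bax and Sesn2. They were chosen by name and not by their values, though with earlier results of these data known. All 10 have a row among the 14145 genes of the expression matrix, and all 10 passed the filter that left 12379 genes for testing, namely a TPM over 1 in more than 5 cells.

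The values are TPM, in which reads are divided by transcript length and each cell is then brought to an equal sum. They come from cultured mouse keratinocytes, which build the epidermis, read 1 cell at a time. To ask how cells respond to neighbours with active Wnt signalling, WT keratinocytes were grown with K14ΔNβ-cateninER keratinocytes at 9 parts to 1, with or without 200 nM 4-hydroxy-tamoxifen for 24 h. All groups therefore hold the transgene-bearing neighbours, whose stabilised beta-catenin, driven by the keratin 14 promoter, is switched on by the drug in the treated groups. The drug and its effect through the neighbours cannot be told apart in these groups. The keratinocytes came from adult mouse skin, cells larger than the capture size were lost, and the transgenic cells that the study removed were not told apart here. The labels and library names give 4 sets of cells, namely AG untreated (69 cells), AG treated (68), GHA501A untreated (71) and GHA501A treated (69), which were taken as the replicates.

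The p53 protein is a transcription factor that is kept low by Mdm2, a ubiquitin ligase that p53 itself switches on. Under stress p53 raises genes that stop the cell cycle, such as Cdkn1a, and genes that promote cell death, such as Bax. Cdkn1a and Cdkn1b encode the Cip/Kip inhibitors p21 and p27, which bind cyclin-dependent kinases together with their cyclins. Cdkn2a and Cdkn2b encode Ink4 inhibitors of the kinases that act on the retinoblastoma protein, and Cdkn2a also encodes Arf, which restrains Mdm2. In epidermis these inhibitors are known for their part in the exit of basal cells from the cell cycle.

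The cells differed more by series than by treatment. By Ward clustering made without the 10 genes, all 137 AG cells were keratinocyte-like (clusters 4 and 5), whereas 88.7% of GHA501A untreated and 84.1% of GHA501A treated cells were fibroblast-like (clusters 2 and 3), against their keratinocyte label. The remaining 8 untreated and 11 treated GHA501A cells were keratinocyte-like (cluster 1). Median Krt14 was 2032, 3038 and 5275 TPM in clusters 1, 4 and 5 and 16.4 and 3.31 TPM in clusters 2 and 3, and median Col1a1 was 2573 and 1084 TPM in clusters 2 and 3 and at most 19.6 TPM in the others. The 10 genes leading each cluster by fold held no keratinocyte marker, and Dcn in cluster 3 was their single fibroblast marker. Genes with TPM over 1 numbered 2538 to 7592 per cell (median 6287), and every cell summed to 1000000, so the depth of a cell cannot be read from its values. In addition, 92 genes had TPM over 1 in over 95% of GHA501A cells and under 5% of AG cells, and 11 the other way round. Among them are genes that every cell uses, such as the translation factor genes Eif4a1 (0.0153 TPM in AG, 231 TPM in GHA501A) and Eif5a (0.0484 and 242 TPM), so a low level in AG may be a failed listing and is given below as listed.

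The promoters of Cdkn1a, Mdm2 and Ccng1, the 3 p53 targets whose patterns across cells are compared with other genes further on, are shown because each holds at least 1 match to the p53 half-site, a pair of which makes up the p53 response element. The windows are from RefSeq (GRCm38.p6) and run from 250 bases before to 50 bases after the annotated start, and capitals mark matches to the 10-base p53 half-site consensus, which reads alike on both strands. Cdkn1a has 2 such windows, and that of its upstream start (chr17:29090729-29091028, plus strand) is given. The Mdm2 window is chr10:117710709-117711008 and that of Ccng1 is chr11:40755237-40755536, both on the minus strand.
Cdkn1a: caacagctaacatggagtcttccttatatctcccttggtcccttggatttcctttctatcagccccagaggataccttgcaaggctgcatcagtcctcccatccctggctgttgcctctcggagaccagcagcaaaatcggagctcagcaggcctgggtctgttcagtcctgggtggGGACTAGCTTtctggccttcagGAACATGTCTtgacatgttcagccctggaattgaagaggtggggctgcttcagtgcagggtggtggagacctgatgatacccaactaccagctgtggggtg
Mdm2: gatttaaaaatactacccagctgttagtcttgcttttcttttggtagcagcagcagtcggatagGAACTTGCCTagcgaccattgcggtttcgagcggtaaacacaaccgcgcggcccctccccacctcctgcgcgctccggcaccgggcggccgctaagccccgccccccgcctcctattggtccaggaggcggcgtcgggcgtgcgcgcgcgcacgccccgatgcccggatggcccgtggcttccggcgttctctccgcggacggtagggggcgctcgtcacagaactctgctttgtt
Ccng1: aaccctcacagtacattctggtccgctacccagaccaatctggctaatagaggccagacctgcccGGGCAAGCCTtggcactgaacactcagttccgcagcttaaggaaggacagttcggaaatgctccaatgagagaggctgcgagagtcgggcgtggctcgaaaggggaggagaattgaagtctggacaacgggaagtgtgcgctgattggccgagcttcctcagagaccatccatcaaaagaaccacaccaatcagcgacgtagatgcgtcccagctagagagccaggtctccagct
The half-site was present in 6 of the 12 windows of the 10 genes, namely in those of Trp53, Mdm2, Ccng1, Gadd45a, Bax and Cdkn1a, against 8.36% of 32841 promoters. The matches start at position -186 in Mdm2, -185 in Ccng1, and -73 and -51 in Cdkn1a, counted from the annotated start. Cdkn1a was the only one of the 10 genes with a pair of half-sites at most 13 bases apart, an arrangement found in 0.0731% of the promoters. No binding was measured, and a match describes the letters alone.

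Mdm2 was the most abundant of the 10 transcripts in every set, ranking between 30th and 49th of all 14145 genes by mean TPM. Ccng1 and Cdkn2b followed in AG cells, and Trp53 came second in GHA501A cells. At the low end stood Trp53 in AG (rank 10071 in untreated and 10972 in treated cells) and Sesn2 in GHA501A cells (rank 8381 in untreated and 10731 in treated cells). Neighbours in this order often differed by less than the distance between sets. Cdkn1b and Gadd45a, for example, had mean levels of 39.7 and 39.6 TPM in AG untreated cells, and Cdkn2b and Ccng1 had 126.6 and 124.2 TPM in GHA501A untreated cells.

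**Figure D1:**
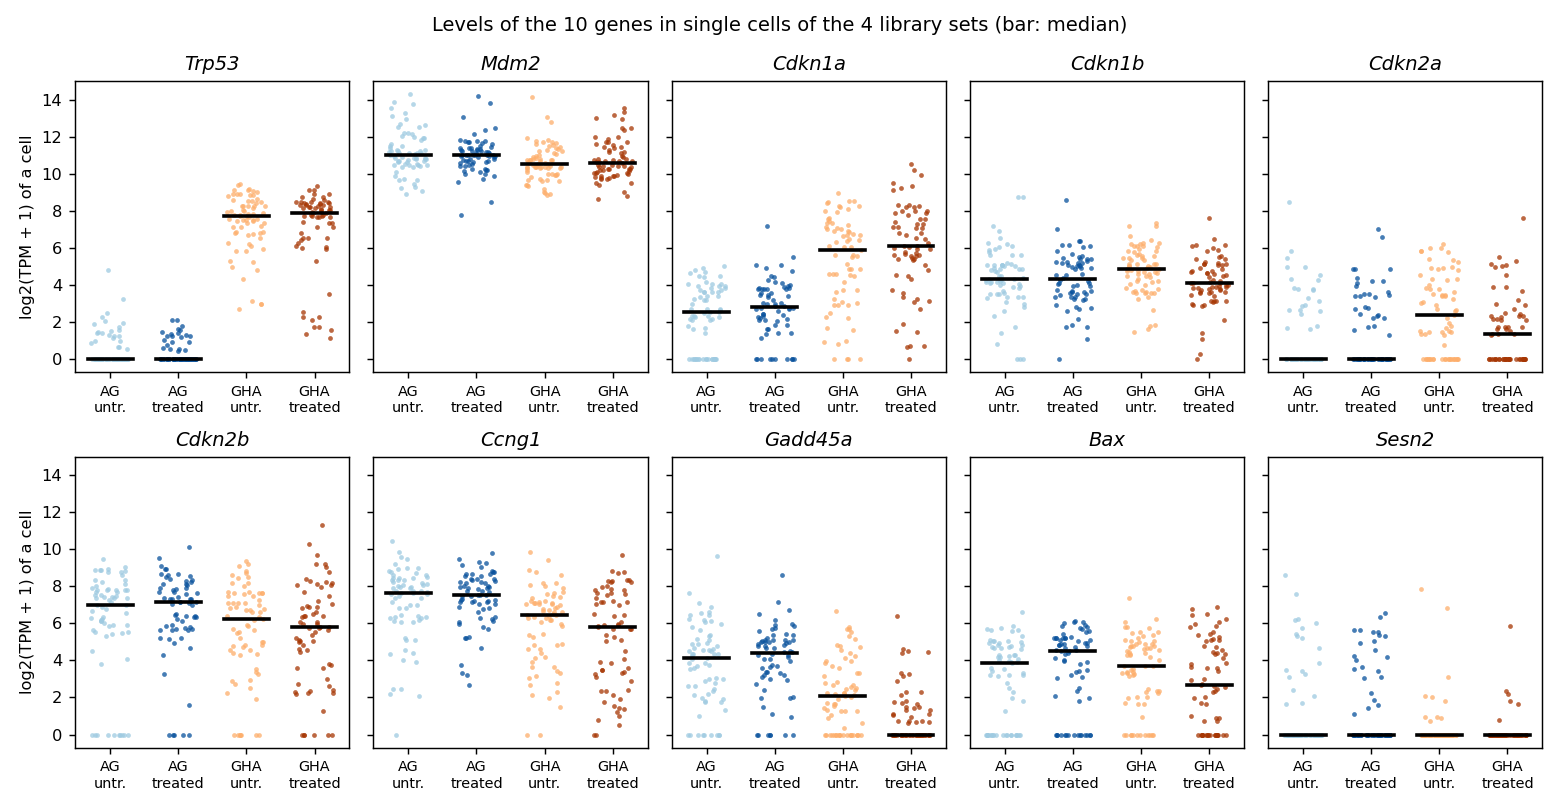
Levels of the 10 genes in single cells. Each point is 1 cell, the y axis is log2(TPM + 1), bars are medians, and the columns are the AG untreated (69 cells), AG treated (68), GHA501A untreated (71) and GHA501A treated (69) sets. The lowest Mdm2 value of any cell is 219 TPM, and Trp53 has a median of 0 in both AG sets.

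Trp53 (chr11:69580359-69591873, plus strand, GRCm38, GENCODE M21) was listed at exactly 0 in 46 of 69 AG untreated and 46 of 68 AG treated cells, with highest values of 27.4 and 3.30 TPM. It was over 1 TPM in every GHA501A cell, with a lowest value of 5.50, a median of 209 and a highest of 704 TPM in untreated cells, and 1.16, 231 and 647 TPM in treated cells. Trp53 was thus near 0 in 1 series and abundant in the other. Near Trp53, Eif4a1 and Eif5a had the same split, and Plscr3 went from 0.0336 TPM in AG to 45.02 TPM in GHA501A. Between them lie genes listed at like levels in both series, such as Tmem256 (127.2 and 168.4 TPM) and Gps2 (48.1 and 33.3 TPM), and Wrap53, which starts next to Trp53 on the opposite strand, had 29.4 and 30.9 TPM. The part of the listing in the Trp53 difference was not tested.

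Mdm2 (chr10:117688875-117710758, minus strand) was over 1 TPM in all 277 cells. In AG untreated cells its lowest, median and highest values were 477, 2101 and 20141 TPM, and in AG treated cells 219, 2059 and 18974 TPM. The GHA501A values were 462, 1482 and 17950 TPM in untreated and 390, 1515 and 12236 TPM in treated cells. The means were 3364 ± 3617 and 2677 ± 2799 TPM in AG and 2069 ± 2336 and 2405 ± 2391 TPM in GHA501A cells (SD over cells, untreated and treated), so the 4 sets overlapped over nearly their whole range.

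Mdm2 lies in a stretch of chromosome 10 in which several genes had high levels. Of its 18 neighbours in the matrix whose starts lie within 1000 kb, 5 had a mean over 500 TPM in AG cells and 5 in GHA501A cells (27.8%), against 2.42% and 2.31% of all genes. Cct2, which encodes a chaperonin subunit and starts 647 kb away, had the highest mean of the whole matrix in both series (31978 and 34680 TPM). Yeats4, a chromatin reader gene, had 1645 and 2119 TPM, Frs2, which encodes a growth factor receptor adaptor, had 703 and 618 TPM, and Cpsf6, which encodes an RNA 3′-end processing factor, had 931 and 732 TPM. Besides these, Rap1b was over 500 TPM in AG alone (840 and 466 TPM) and Lyz2 in GHA501A alone (120 and 729 TPM). Ifng, the interferon gamma gene, a cytokine best known from lymphocytes, was over 1 TPM in 64.2% of AG and 77.9% of GHA501A cells, while the interleukin genes Il22 and Iltifb between it and Mdm2 had means under 1 TPM. None of the other 9 genes had more than 2 neighbours over 500 TPM. DNA copy number was not measured.

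**Figure D2:**
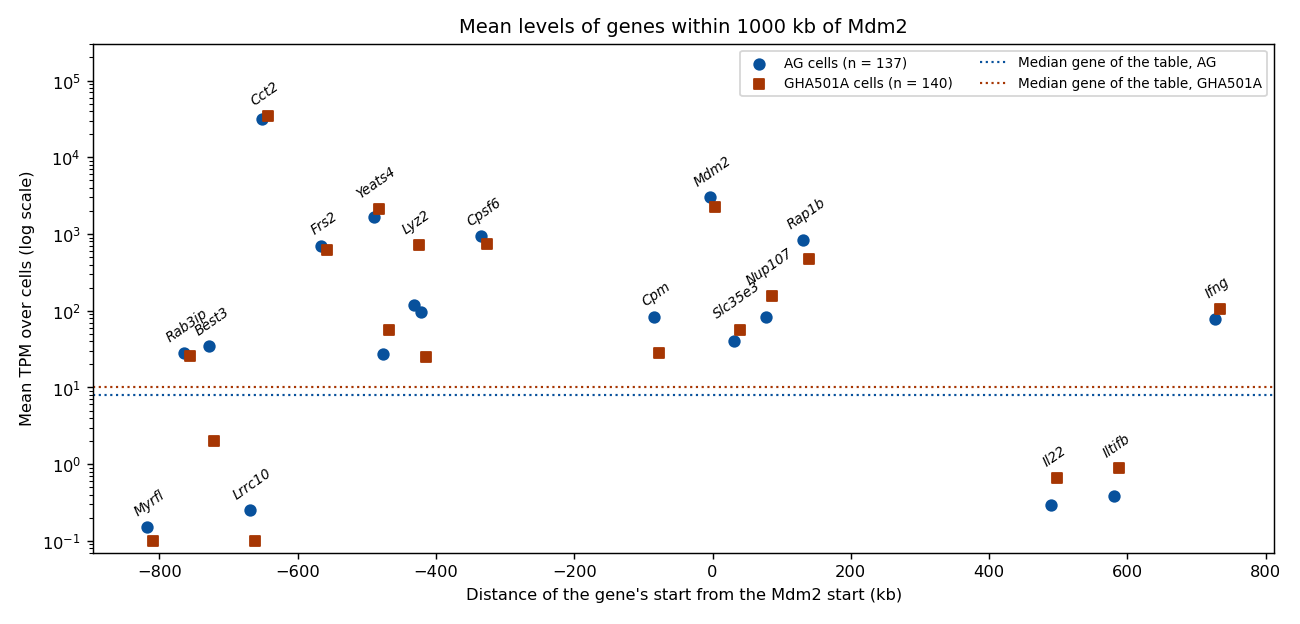
Mean TPM (log scale) of the genes within 1000 kb of Mdm2 against the distance of their start from that of Mdm2 in kb, for 137 AG cells (circles) and 140 GHA501A cells (squares). Means under 0.1 TPM are drawn at 0.1, Lyz1 and 9530003J23Rik beside Lyz2 carry no name, and dotted lines mark the median gene of the matrix (7.89 TPM in AG, 10.0 TPM in GHA501A). Cct2, Mdm2, Yeats4, Frs2 and Cpsf6 lie above 500 TPM in both series.

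Cdkn1a (p21, chr17:29090976-29100727, plus strand) was low in AG and higher in GHA501A cells. Its median was 4.74 TPM in AG untreated cells (0 to 31.7) and 5.96 TPM in AG treated cells (0 to 146), and it was over 1 TPM in 72.5% (95% Wilson interval 60.95 to 81.6) and 85.3% (75.003 to 91.8) of them. In GHA501A the median was 57.1 TPM in untreated cells (0 to 507) and 66.9 TPM in treated cells (0 to 1454). Single cells of the series overlapped, and the means of the sets did not (7.79 and 10.7 TPM against 99.1 and 176 TPM). The annotated gene AC167363.2 overlaps exons of Cdkn1a on the opposite strand and has no row of its own. Whether reads were counted by strand is not given in the sources used here.

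Cdkn1b (p27, chr6:134920401-134925513, plus strand) had much the same level in every set. Its medians were 19.2 and 18.8 TPM in AG untreated and treated cells and 28.3 and 15.99 TPM in GHA501A untreated and treated cells, and it was over 1 TPM in at least 94.2% of the cells of each set. The highest cells had 435, 384, 159 and 196 TPM in the same order.

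Cdkn2a and Cdkn2b are neighbours on chromosome 4 (chr4:89274471-89294653 and chr4:89306299-89311039, minus strand) and had unlike levels. Cdkn2a, whose row cannot separate the Ink4a and Arf transcripts, had a median of 0 TPM in both AG sets (highest 353 untreated and 126.4 treated). Its median was 4.24 TPM in GHA501A untreated (0 to 71.8) and 1.53 TPM in GHA501A treated cells (0 to 192). It was over 1 TPM in 33.3% (23.4 to 45.1) and 42.6% (31.6 to 54.5) of AG and 67.6% (56.1 to 77.3) and 52.2% (40.6 to 63.5) of GHA501A cells. The top 3 cells held 66.8% and 49.4% of its summed TPM in the AG untreated and treated sets, and 22.3% and 49.9% in the GHA501A sets.

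Cdkn2b (p15), by contrast, was found in most cells. Its medians were 127.3 and 140.996 TPM in AG and 75.7 and 55.7 TPM in GHA501A untreated and treated cells, with highest values of 723, 1138, 675 and 2517 TPM. The ranges of all 4 sets started at 0 TPM and overlapped.

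Ccng1 (cyclin G1, chr11:40748552-40755311, minus strand) was abundant in every set. Its lowest, median and highest values were 0, 201 and 1397 TPM in AG untreated and 5.29, 186 and 905 TPM in AG treated cells. In GHA501A they were 0, 87.1 and 930 TPM in untreated and 0, 54.4 and 836 TPM in treated cells. Both GHA501A medians lay under both AG medians, and the cells overlapped.

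Gadd45a (growth arrest and DNA damage, chr6:67035096-67037457, minus strand) had medians of 16.5 TPM in AG untreated (0 to 792) and 20.1 TPM in AG treated cells (0 to 387). In GHA501A the medians were 3.19 TPM in untreated (0 to 101) and 0 TPM in treated cells (0 to 82.5). The share of cells over 1 TPM was 85.5% (75.3 to 91.9) and 88.2% (78.5 to 93.9) in AG, against 67.6% (56.1 to 77.3) and 34.8% (24.6 to 46.6) in GHA501A. E230016M11Rik overlaps Gadd45a on the opposite strand, and whether reads were counted by strand is not given in the sources used here.

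Bax (a pro-apoptotic Bcl-2 family gene, chr7:45461697-45466898, minus strand) had medians of 13.6 and 22.1 TPM in AG and 12.3 and 5.31 TPM in GHA501A untreated and treated cells. Its highest values were 98.7, 69.8, 168.3 and 118.1 TPM. It was over 1 TPM in 63.8% to 81.7% of the cells of a set. The annotated gene Gm45808 shares exons with Bax on the same strand.

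Sesn2 (sestrin 2, a stress-induced inhibitor of growth signalling, chr4:132492032-132510501, minus strand) had a median of 0 TPM in all 4 sets. It was over 1 TPM in 27.5% (18.4 to 39.05) of AG untreated and 35.3% (25.002 to 47.2) of AG treated cells, but in 8.45% (3.93 to 17.2) and 7.25% (3.14 to 15.9) of GHA501A cells. The top 3 cells held 96.6% and 92.5% of its summed TPM in the GHA501A sets, so its means there rest on single cells. In AG untreated and treated cells the top 3 held 62.3% and 35.4%, so the AG means also lean on few cells.

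No gene passed the test between treated and untreated cells. In a limma fit to log2 of each set mean (TPM + 1), blocked by series, 0 of 12379 genes (0%) had an adjusted p under 0.05 and a log2 change over 0.5, while 482 genes had an unadjusted p under 0.05. Cdkn1a had a treated minus untreated difference of 0.62 (95% interval -0.27 to 1.504), positive in both series (0.41 in AG, 0.82 in GHA501A). Sesn2 had -1.12 (-2.15 to -0.09, unadjusted p = 0.0391, limma, adjusted p = 0.997), negative in both series (-0.64 and -1.59), although the share of AG cells over 1 TPM was higher in treated than in untreated cells. With the mean over cells of log2(TPM + 1) the Sesn2 difference turned to 0.01.

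The remaining differences were Gadd45a -0.84 (-1.87 to 0.19), Cdkn2a -0.48 (-1.34 to 0.39), Cdkn1b -0.42 (-1.28 to 0.44), Trp53 -0.30 (-1.19 to 0.58), Cdkn2b 0.26 (-0.60 to 1.13), Bax 0.17 (-0.73 to 1.07), Ccng1 -0.07 (-0.92 to 0.78) and Mdm2 -0.06 (-0.97 to 0.86). All of these intervals include 0. The 10 genes went the same way in both series for 8 genes and opposite ways for Bax and Mdm2, where 50.3% of all genes tested went opposite ways. The difference between the series could not be tested, since each holds 1 untreated and 1 treated set.

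**Figure D3:**
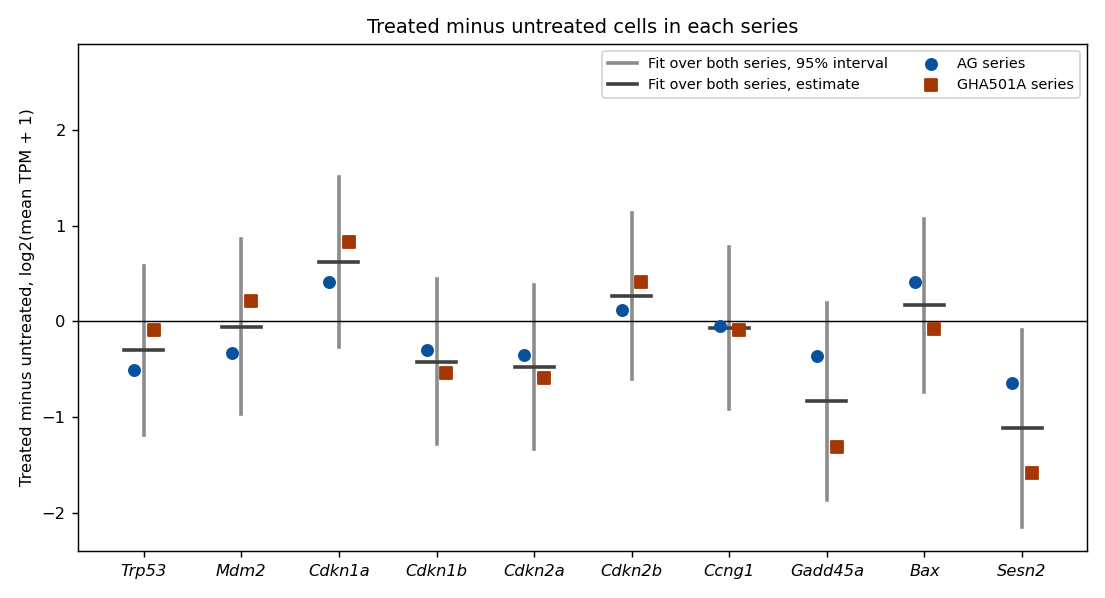
Treated minus untreated difference in log2(mean TPM + 1) for each gene in AG cells (circles) and GHA501A cells (squares), with the estimate over both series (dark bar) and its 95% interval (grey line). The intervals of 9 genes cross 0, and that of Sesn2 runs from -2.15 to -0.09 but did not pass after adjustment over all genes.

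The other lists of the pathway gave 0 calls as well. They comprised 14 further p53 arrest and feedback targets, 10 p53 apoptosis targets, 11 p53 repair and metabolism targets, 3 other inhibitors of cyclin-dependent kinases, 12 cyclins and kinases and 11 genes of the Rb and E2F group, none of which was called between treated and untreated cells.

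Between the series, 4 of the 10 genes passed the test. Of all genes, 30.1% were called between GHA501A and AG sets by the same fit, 18.6% higher and 11.5% lower in GHA501A. Trp53 was higher by 7.08 ± 0.34 (SE, adjusted p = 0.00145, limma over 4 sets) and Cdkn1a by 3.72 ± 0.34 (adjusted p = 0.00257, limma). Gadd45a was lower, at -2.36 ± 0.39 (adjusted p = 0.0136, limma), and Sesn2 at -1.88 ± 0.39 (adjusted p = 0.0256, limma). Both GHA501A set means lay above both AG means for Trp53 and Cdkn1a, as for 36.7% of genes, and below them for Mdm2, Cdkn2b, Ccng1, Gadd45a and Sesn2, as for 33.4% of genes.

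These differences move with other differences between the series. Trp53 was among 210 genes over 1 TPM in over 95% of GHA501A and under 30% of AG cells, while Cdkn1a was over 1 TPM in 78.8% of AG cells. Ywhaz and Cdk6 were likewise over 1 TPM in many AG cells (74.5% and 93.4%). Their means were nevertheless 2.59 and 19.2 TPM in AG, against 923 and 3537 TPM in GHA501A cells. This share therefore does not set Cdkn1a apart from such genes. Of 17 keratinocyte markers 16 were analysed, and their summed level ran from 1413 to 86816 TPM in AG cells and from 0 to 60694 TPM in GHA501A cells, with medians of 25944 and 24875 TPM against 29.97 and 117.1 TPM. Of 17 fibroblast markers 13 were analysed, with medians of the summed level of 174.9 and 157.2 TPM (1.43 to 5469) in AG and 4101 and 3313 TPM (28.3 to 30172) in GHA501A cells. Col1a1, Col1a2 and Col3a1 had medians of 0 in AG cells, and Trp63, Pdgfra, Pdgfrb, Lum and Thy1 were not analysed here. Not every marker followed its class. The keratinocyte marker Itgb4 had a median of 0 in both AG sets, and the fibroblast markers Dcn and Postn in both GHA501A sets. Of 8 tested genes of a stress and RNA quality list, 4 were called lower in GHA501A, where 11.5% of all genes were. They were Atf3 (-4.35 ± 0.43), Fos (-3.96 ± 0.94), Egr1 (-2.38 ± 0.36) and Jun (-1.66 ± 0.40), with a list median of -1.77. Of 22 S phase and 24 G2/M genes, 5 each were called higher in GHA501A and none lower. Of all genes, 18.6% were called higher, so these counts are near that share. The list medians were 1.01 and 0.95, beside 0.01 over all genes tested, so the medians do differ from that of all genes. The series were also compared within 1 class of cells, as follows, which does not give the part of cell type in the 4 calls. The parts of cell type, the listing, the stress genes and the cycle genes were not tested.

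Among keratinocyte-like cells alone, Trp53, Cdkn1a and Sesn2 were again called, where 10.3% of all genes were called (7.27% higher, 2.99% lower in GHA501A). Trp53 averaged 321 TPM in 8 GHA501A untreated and 159.2 TPM in 11 GHA501A treated cells, and was higher by 7.04 ± 0.56 (SE, adjusted p = 0.0196, limma). Cdkn1a had medians of 107.1 and 152.9 TPM in these cells and was higher by 4.19 ± 0.58 (adjusted p = 0.0251, limma). Sesn2 had its highest values at 0.832 and 3.54 TPM, with 0 of 8 untreated cells over 1 TPM, which allows a share of up to 37.5% when 3 cells are taken as the limit of a count of 0, and was lower, at -3.42 ± 0.59 (adjusted p = 0.0372, limma).

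Gadd45a was not called in this class (-1.83 ± 0.56, adjusted p = 0.131, limma), nor were Cdkn2b (-1.56 ± 0.56), Ccng1 (-1.51 ± 0.55) and Cdkn2a (-1.42 ± 0.60). All 3 calls were lost when either AG set was left out, when 0 genes passed, and without the filter on low values. Leaving out either AG set also ended the calls of Cdkn1a, Gadd45a and Sesn2 over all cells, with adjusted p (limma) of 0.0763 to 0.0889, 0.184 to 0.226 and 0.26 to 0.377. Gadd45a was also lost without the GHA501A treated set (adjusted p = 0.0646, limma), as was Sesn2 without either GHA501A set (0.0519 and 0.189).

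Within GHA501A, no gene was called between fibroblast-like and keratinocyte-like cells (0 of 12379, limma, with 1574 at an unadjusted p under 0.05). That includes the markers that named the classes, with 0 of 16 keratinocyte markers (median difference -6.01) and 0 of 13 fibroblast markers (4.55) called. The lack of a call therefore does not show that a gene is alike in the 2 classes. Cdkn2a averaged 13.9 and 8.78 TPM in untreated and treated fibroblast-like cells against 1.80 and 3.60 TPM in keratinocyte-like cells, a difference of 1.75 ± 0.52 (SE, adjusted p = 0.422, limma). Cdkn2b averaged 133.8 and 191.3 TPM against 69.3 and 50.7 TPM, a difference of 1.42 ± 0.41 (adjusted p = 0.42, limma). Sesn2, carried by few cells, differed by 1.65 ± 0.70 (adjusted p = 0.496, limma), with 2.61 in untreated and 0.70 in treated cells. Trp53 differed by 0.04 on average, from opposite differences of -0.48 in untreated and 0.57 in treated cells. Mdm2 (0.99 and -0.38) and Gadd45a (0.25 and -1.72) also went opposite ways in untreated and treated cells, and Cdkn1b and Bax differed by -0.04 and 0.05. With each column centred on its median gene, 795 genes were called, 440 higher and 355 lower, of which the 10 genes were not part.

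**Figure D4:**
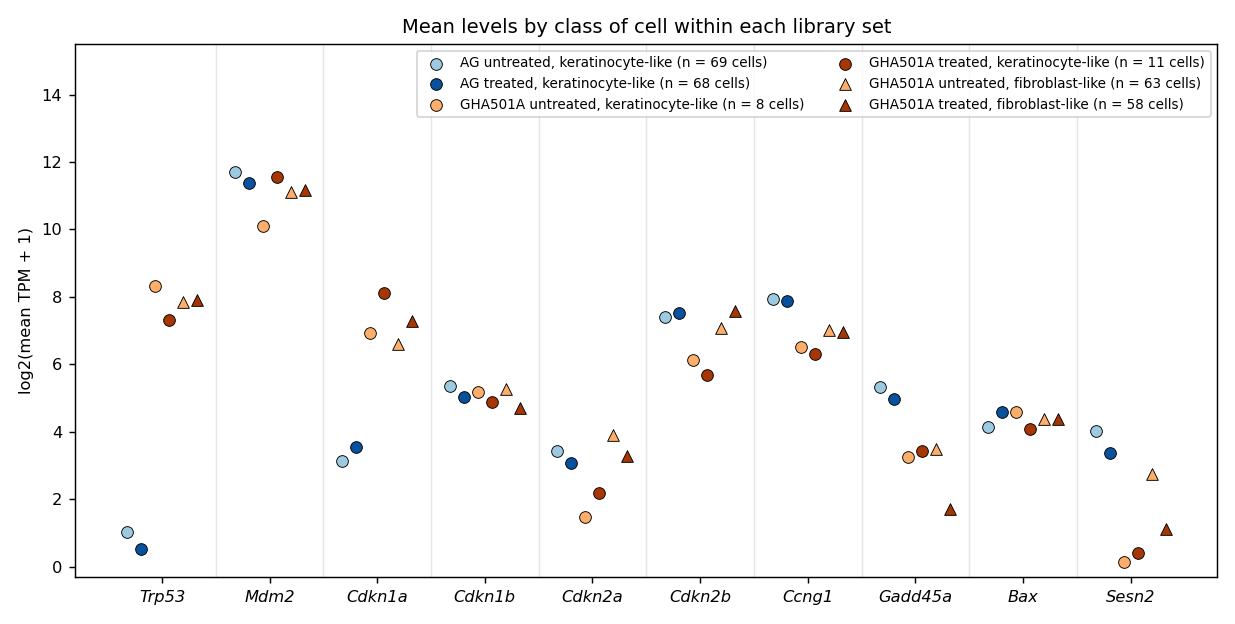
Log2(mean TPM + 1) of the 10 genes by class of cell within each set. Circles are keratinocyte-like and triangles fibroblast-like cells, and colours give the set. Trp53 lies at 1.04 and 0.53 in the AG sets and at 7.32 to 8.33 in the 4 GHA501A groups, and Cdkn2a and Cdkn2b lie higher in the triangles than in the GHA501A circles.

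Calls in the pathway lists between the series are read against the 30.1% of all genes called, 18.6% higher and 11.5% lower. Of 14 p53 arrest and feedback targets, Trp53inp1 (4.06 ± 0.47) and Sesn1 (3.46 ± 0.37) were higher in GHA501A and Sfn (-2.65 ± 0.38) and Btg2 (-1.70 ± 0.34) lower, with a list median of 0.11 beside 0.01 over all genes tested. Of 10 apoptosis targets, 4 were higher, among them Aen (3.51 ± 0.39), Siva1 (3.07 ± 0.32) and Fas (2.62 ± 0.34), and 3 were lower, namely Pmaip1 (-3.80 ± 0.33), Perp (-3.21 ± 0.45) and Trp53i11 (-1.70 ± 0.37), with a median of -0.10. Trp53inp1, Sesn1 and Aen averaged 0.0438, 0.312 and 0.0238 TPM in AG cells, whereas Siva1 and Fas averaged 34.8 and 33.3 TPM there. The part of the listing in these calls was not tested. Sfn, an epidermal 14-3-3 protein gene, and Perp, a desmosome gene, are also known for their high level in keratinocytes. None of 11 repair and metabolism targets was called (median -0.32). Of 12 cyclins and kinases, Cdk6 (7.45 ± 0.32), Ccne2 (4.41 ± 0.36), Ccnd3 (4.05 ± 0.34) and Cdk2 were higher and none lower (median 1.25), and Ccnd3 and Ccne2 averaged 0.0256 and 0.0826 TPM in AG cells. Of 3 other inhibitors, Cdkn2c was higher (2.16 ± 0.35).

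Among keratinocyte-like cells, where 10.3% of all genes were called, 0 of the 14 arrest targets and 1 of the 10 apoptosis targets (Aen, 4.59 ± 0.73, adjusted p = 0.0333, limma) were called between the series, and Sfn and Perp differed by 0.16 and -0.47. Aen averaged 0.0238 TPM in AG cells, all of which belong to this class. Cdk6, Ccnd3, Ccne2 and Cdk2 were called in this class as well.

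To relate the inhibitors to cycling, cells of each set were ranked by the mean log2(TPM + 1) of 24 G2/M genes and split into 3 parts, and the high-score part was compared with the low-score part. Of all genes, 94 were called (0.759%), 93 higher (0.751%) and 1 lower (0.00808%) in high-score cells, and 18 of the 24 scoring genes, which made the ranking, were among those higher. None of the 10 genes was called. Bax was lower in high-score cells in all 4 sets, as were 7.37% of all genes, with means of 21.9 against 16.5, 32.2 against 19.95, 25.1 against 23.2 and 20.3 against 14.5 TPM in AG untreated, AG treated, GHA501A untreated and GHA501A treated cells. Its mean difference was -0.41 ± 0.22 (SE, adjusted p = 0.559, limma).

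Cdkn1a had no common direction, with 274 TPM in the low-score and 131.5 TPM in the high-score part of GHA501A treated cells, but 87.01 and 120.6 TPM in GHA501A untreated cells. Cdkn2b and Ccng1 were lower in high-score cells in 3 of 4 sets (-0.44 ± 0.31 and -0.30 ± 0.27), and Gadd45a was higher in 3 of 4 (0.38 ± 0.28). Across single cells, the mean Spearman rho with the G2/M score lay between -0.08 and 0.08 for all 10 genes. With a score of S phase genes it was 0.25 for Trp53, 0.16 for Bax, -0.16 for Mdm2 and -0.19 for Cdkn1b. The parts are ranges of a score and not phases, and high-score cells had more genes detected in every set (medians 6362 to 6604 against 5691 to 6293.5).

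Correlations between the 10 genes from cell to cell were weak when averaged over the sets. Of 45 pairs, 13 had a positive Spearman rho in all 4 sets and 1 a negative one, and only Trp53 with Bax exceeded a mean rho of 0.2. In single sets rho reached 0.43 for Cdkn1a with Ccng1 and 0.39 for Cdkn1a with Cdkn1b, both in GHA501A treated cells, but each of these pairs was negative in AG treated cells (-0.14 and -0.15). Trp53 with Bax had 0.27, 0.17, 0.23 and 0.28 in AG untreated, AG treated, GHA501A untreated and GHA501A treated cells (n = 69, 68, 71 and 69 cells), and Ccng1 with Bax had 0.26, 0.15, 0.23 and 0.14. Mdm2 with Bax was negative throughout, from -0.05 to -0.33. Trp53 with Mdm2 had -0.15, 0.09, -0.21 and -0.31, and Trp53 with Cdkn1a had 0.01, 0.24, -0.18 and -0.17, so neither kept a sign. The points are cells of 1 set and not replicates. Bax and Trp53 both rose with the number of genes detected in AG untreated (rho 0.52 and 0.31) and AG treated cells (0.20 and 0.27). In GHA501A untreated and treated cells this rho was -0.02 and 0.07 for Bax and 0.09 and 0.10 for Trp53. The part of the number of genes detected in the correlations was not tested.

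**Figure D5:**
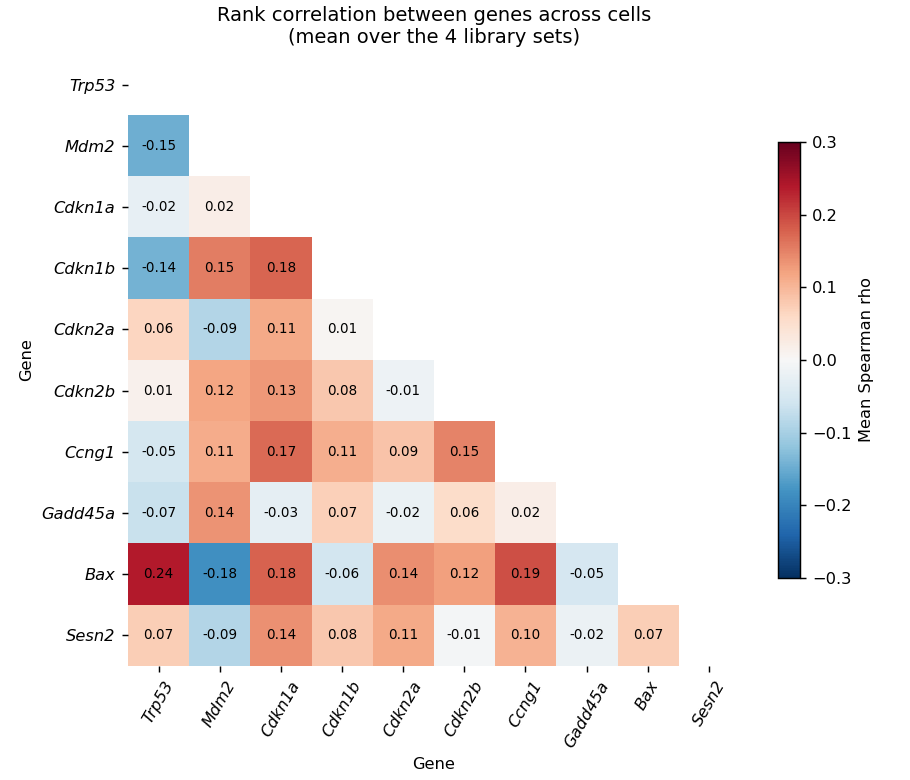
Spearman rho across cells between each pair of the 10 genes, averaged over the 4 sets (colour and number). The highest value is 0.24 for Trp53 with Bax and the lowest is -0.18 for Mdm2 with Bax.

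Genes with the pattern most like that of Cdkn1a, by mean rho over the 4 sets among 7082 genes over 1 TPM in at least 20% of the cells of each set, were Ephx1 (0.34), an epoxide hydrolase gene, Alkbh5 (0.32), an RNA demethylase gene, Bhlhe40 (0.31), a transcriptional repressor gene, S100a16 (0.31) and Sprr1a (0.30), a cornified envelope gene. The 99th percentile of these rho values was 0.23. Of the other genes described here, Bax (0.18), Cdkn1b (0.18) and Ccng1 (0.17) stood highest, at places 261, 266 and 294, under that percentile. Trp53 and Gadd45a stood at places 5154 and 5217. For Ccng1 the 5 genes were Sat1 (0.29), Uvssa (0.29), Commd3 (0.29), Btg1 (0.29) and Ephx1 (0.28), so that Ephx1 was on both lists.

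Mdm2 had closer companions, with 1700109H08Rik (0.58), Dcaf10 (0.58), Akap9 (0.57), Frs2 (0.55) and Cpsf6 (0.53) against a 99th percentile of 0.37. Frs2 and Cpsf6 are the neighbours of Mdm2 on chromosome 10 described above, Akap9 (chr5:3928054-4081310) and 1700109H08Rik (chr5:3571566-3584356) both lie on chromosome 5, and Dcaf10 is on chromosome 4. The rho with Mdm2 was between 0.48 and 0.63 for Frs2 and between 0.47 and 0.62 for Cpsf6 in the 4 sets, whereas for Cct2 it ran from -0.05 to 0.32. Mdm2 with Cdkn1a, both p53 targets, had a mean rho of 0.02 and stood at place 3106 of the 7082.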

How the data were processed

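Single keratinocytes were captured on C1 chips and their cDNA was made with SMART-Seq v4. TopHat alignment to GRCm38 and featureCounts, with multiply mapped reads discarded, gave the authors gene counts, which they turned into TPM, the unit of the deposited matrix. TPM of each cell sum to 1000000, so the depth of each cell, and the precision of its low values, cannot be read from them; the methods state a minimum of aligned reads per cell.

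The matrix has 294 columns, of which 278 match a label and 16 were not used. Series (AG or GHA501A) came from the library names and treatment from the treatment label. In 8 AG cells (5 labelled treated, 3 untreated) name and label disagree, and the label was followed. AG treated cells 38 and 39 had a Pearson r of 0.979 on log2 values (next pair 0.831) and were averaged as 1 cell, which left 277. Drug and carrier were given to separate wells, but the labels do not tie AG and GHA501A to animals, cultures or days, so p-values measure the spread between these sets, which may be technical.

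Levels were compared with limma 3.58.1 (R 4.3.3, empirical Bayes, two-sided, Benjamini-Hochberg over 12379 genes) on log2(mean TPM + 1) per set, class or G2/M-score part, with series, treatment or set as block. A call needed an adjusted p under 0.05 and an absolute log2 difference over 0.5. A pseudocount of 1 understates changes of low genes. Cells were clustered by Ward's method (5 clusters, 10 components, 2000 genes, without the 10 genes and the pathway and cycle lists), and clusters were named from marker lists. Shares have 95% Wilson intervals, which cover the counting of cells only. Gene positions are from GENCODE M21, promoters from RefSeq. Python 3.11.15 was used otherwise. Simulated data with known changes served to test the steps.

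The 10 genes, the lists and the tests were chosen with earlier results of these data known. Named besides the 10 genes are up to 3 genes in each direction per list past the thresholds, and the 5 genes most like Cdkn1a, Mdm2 and Ccng1 across cells. Neighbours of Mdm2 and Trp53, Cdk2, and the genes listed in 1 series were named after their values were seen. Alternatives were another pseudocount, mean of logs, other filters, other clusterings, a split at the median score, the 8 cells left out or grouped by name, each set left out, and no block. Added after seeing the data were both near-identical cells kept, cells with at least 4000 genes, columns centred on the median gene, and leaving out genes listed in 1 series.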

Additional observations from a re-analysis of the deposited data

Results flagged for a closer look

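The treated minus untreated differences of Bax and Mdm2 had opposite signs in the series. For Bax the difference in log2(mean TPM + 1) was 0.42 in AG cells (16.9 TPM untreated, 22.8 TPM treated) and -0.081 in GHA501A cells (20.4 and 19.2 TPM). For Mdm2 it was -0.33 in AG cells (3364 and 2677 TPM) and 0.22 in GHA501A cells (2069 and 2405 TPM). Whether the series differ in this was not tested, since each series holds 1 set per treatment, and 50.3% of all genes tested had opposite signs.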

How the results depend on the processing

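With 4 sets the fits have few residual degrees of freedom, and the depth of each cell is unknown. Between treated and untreated cells 0 genes were called under every alternative run, including the fit with no replicate block (0 genes). The fit with no replicate block called 3995 genes between the series, where Ccng1 passed (adjusted p 0.0379, limma) and Sesn2 did not (0.085), 1812 genes in keratinocyte-like cells, where Gadd45a passed (0.0467), and 86 between G2/M parts, and it changed no other call of the 10 genes. The block was the series, the treatment or the set. The cause of the changes below was not tested.

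Numbers of genes called moved as follows. Between the series (3720), the mean of log2(TPM + 1) gave 5861 (2788 higher, 3073 lower), with Cdkn2b and Ccng1 then called, and leaving out a set gave 1020 to 2421 (791 higher and 229 lower without AG untreated cells). In keratinocyte-like cells (1270) a pseudocount of 0.1 gave 1939, the mean of logs 256, no filter 0, centring on the median gene 2452, and leaving out a set 0 to 3177. Between G2/M parts (94), a pseudocount of 0.1 gave 19, the mean of logs 338, no filter 12, a split at the median 51, and leaving out a set 0 to 18. Between classes in GHA501A (0), centring gave 795, and leaving out a set gives values with no test. Centring moved the median of all genes to -0.24 between the series. A set left alone in its group was assumed to vary like the others.

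Of 780 re-estimates of a difference of the 10 genes, 689 kept their side and direction and 50 reversed, all in differences that had not passed the test. Treated against untreated, the mean of logs gave Bax -0.035 and Sesn2 0.012. Leaving out a set, which also drops the block, gave Trp53 -3.95 to 3.34, Mdm2 -0.41 to 0.29 and Cdkn1a -1.34 to 2.58. It gave Ccng1 -0.57 to 0.43, Gadd45a -2.25 to 0.58 and Sesn2 -2.30 to 0.064. The series are then unequal between treated and untreated sets, so these values mix treatment with series and do not show how stable the treatment difference is. Between the series, the mean of logs gave Cdkn1b 0.15 and Bax -0.20, the 8 cells left out gave Bax -0.015, at least 4000 genes Bax -0.024, centring Cdkn2a -0.057 and Bax -0.25, and leaving out a set Cdkn1b -0.47 to 0.076, Cdkn2a -0.10 to 0.50 and Bax -0.20 to 0.22. A pseudocount of 0.1 ended the call of Sesn2 (adjusted p 0.0575, limma). Between classes, the mean of logs gave Bax -0.053, k-means Trp53 -0.0071 and Bax -0.0082, 20 components Trp53 -0.075, Cdkn1b 0.035 and Bax -0.18, and centring Trp53 -0.061 and Bax -0.054. In keratinocyte-like cells, the mean of logs gave Cdkn1b 0.30, k-means Bax 0.022, 20 components Bax 0.16, and leaving out a set Bax -0.29 to 0.23. Without the GHA501A untreated set, Cdkn2b (adjusted p 0.0384, limma) and Ccng1 (0.0425) passed there, and with the mean of logs Trp53 (0.0544) and Sesn2 (0.137) did not. Between G2/M parts, the mean of logs gave Cdkn1b -0.013, Cdkn2a -0.31 and Sesn2 0.28, a split at the median Gadd45a -0.25 and Sesn2 0.23, at least 4000 genes Mdm2 0.0060, centring Cdkn1b -0.0016 and Cdkn2a -0.12, and leaving out a set Trp53 -0.26 to 0.17, Mdm2 -0.067 to 0.072, Cdkn1a -0.33 to 0.18, Cdkn2a -0.33 to 0.55 and Sesn2 -0.76 to 1.22.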
